A study of Mus musculus with 90 samples.

Results

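The 9 genes followed here were Pml, Sp100, Sp110, Sp140, Daxx, Nmi, Ifi35, Xaf1 and Samd9l. They were listed by name with earlier results of these data known, and taken from a count table of 53697 mouse genes. Each symbol matched 1 row of that table. RNA was counted by 3′ digital gene expression, which counts a transcript from its 3′ end, in YUMM2.1 melanoma cells and CT26 colorectal cancer cells, with 15 groups of 3 replicates in each line (90 samples). In both lines, IFNγ-naïve cells were collected as a control labelled as BSA at 0 weeks and after 2 or 24 h of IFNγ at 50 IU/mL. Cells exposed continuously to the same dose for 1, 2 or 3 weeks were collected without fresh IFNγ (0 h) or 2 or 24 h after it was added (rechallenge), and BSA controls were collected at each week. Each line is a single established line, and the labels do not say whether replicates were separate cultures, so the tests measure the spread between these samples.

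Promyelocytic leukaemia (PML) nuclear bodies are protein assemblies in the nucleus that are built on the PML protein and held together by SUMO modification. SP100 and DAXX are resident proteins of these bodies, and SP110 and SP140 are relatives of SP100 that bind chromatin. Interferons are known to raise many genes of these bodies, and several of their products restrict viruses. NMI and IFI35 are partner proteins that bind each other, XAF1 antagonises inhibitors of apoptosis, and SAMD9L is a cytoplasmic restriction factor for poxviruses, here grouped with the nuclear genes because it is also raised by interferon.

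The total count of a YUMM2.1 sample was 274719 at the lowest and 3161276 at the highest. For CT26 samples these totals were 295157 and 2205285. Levels are given as CPM, the count of a gene relative to the scaled total of its library. Since values were not divided by gene length, levels were compared between samples and never between genes. In the libraries under 25% of their line's median total (YUMM2.1 3-week IFNγ 0 h replicate 3, CT26 1-week IFNγ 0 h replicate 3 and CT26 3-week IFNγ 0 h replicate 3), 1 read was worth 3 CPM or more. The melanocyte markers summed to 15.6 to 69.8 CPM in YUMM2.1, mainly Sox10 at a mean of 28.6 CPM, while Tyrp1 was at 0 in every sample. The same list summed to 0.636 to 16.9 CPM in CT26, where Sox10 was at 0 and Dct and Mitf had means of 2.56 and 2.69 CPM, above the 0.893 and 2.00 CPM of YUMM2.1. The intestinal markers summed to 47.4 to 131 CPM in CT26, mainly Krt20 at 56.2 CPM, with Epcam, Cdx1 and Vil1 at 0. The leukocyte markers summed to at most 5.16 CPM in a YUMM2.1 sample, all of it Csf1r, and 3.53 CPM in a CT26 sample, all of it Ptprc, with Adgre1 and Cd3e at 0 in both lines.

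Of the 9 members, 7 passed the filter on low counts in YUMM2.1 and 9 passed it in CT26. Sp110 had 65 counts and Sp140 had 71 counts over all 45 YUMM2.1 samples, with 21 and 19 samples at 0, and these genes were not tested within that line.

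The promoters of the pair Nmi and Ifi35 are shown because these genes responded in both lines. They are RefSeq windows of GRCm38.p6, running from 250 bases before to 50 bases after the start of a RefSeq transcript. For Nmi, and for Sp140 among the other members, the window lay wholly within the annotated span of the gene given below. The bases before the outer start of those 2 spans were therefore not searched. Capitals mark a match to TTCNNNGAA, the letters of the gamma-activated site.
Nmi (chr2:51973159-51973458, minus strand): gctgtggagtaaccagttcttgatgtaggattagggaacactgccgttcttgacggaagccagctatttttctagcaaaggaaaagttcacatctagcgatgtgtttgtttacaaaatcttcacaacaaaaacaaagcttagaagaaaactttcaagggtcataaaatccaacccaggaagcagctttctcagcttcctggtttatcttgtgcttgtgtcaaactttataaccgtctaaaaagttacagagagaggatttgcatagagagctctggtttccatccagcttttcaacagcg
Ifi35 (chr11:101448162-101448461, plus strand): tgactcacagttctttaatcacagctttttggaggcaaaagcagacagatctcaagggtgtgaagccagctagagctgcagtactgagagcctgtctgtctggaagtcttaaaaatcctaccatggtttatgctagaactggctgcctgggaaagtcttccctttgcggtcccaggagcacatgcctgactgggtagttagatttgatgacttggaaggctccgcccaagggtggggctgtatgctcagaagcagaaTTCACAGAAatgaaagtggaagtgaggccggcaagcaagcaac
The match in Ifi35 lay at bases 8 to 16 after the start, within the transcribed part. All 9 members had a window in the RefSeq table, and the other 8 held no match to these letters. No member held GAAA, any 2 bases and GAAA in a row, the core letters of the interferon-stimulated response element, and both motifs were searched on both strands. Of 27025 genes with a window, 9.55% held the first motif and 3.99% held the second in at least 1 of their windows. These counts describe the letters in the windows and nothing further upstream.

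In IFNγ-naïve cells, Nmi, Ifi35 and Samd9l rose in both lines after 24 h of IFNγ. In YUMM2.1, 3 of the 7 tested members rose at 24 h, where 0.886% of all 9589 tested genes passed the test (edgeR quasi-likelihood test, adjusted p below 0.05). In CT26, 6 of 9 rose, where 2.04% of 8516 genes passed, and these were Daxx, Sp100 and Sp110 besides the 3 of YUMM2.1. The median log2 fold change of the tested members was 1.03 in YUMM2.1 and 2.13 in CT26, and the medians of all tested genes were 0.02 and -0.02.

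Nmi (ENSMUSG00000026946) lies on chromosome 2 from 51948487 to 51973494 on the minus strand of GRCm38. In YUMM2.1, the 3 controls of 0 weeks held 1.64, 2.44 and 4.50 CPM, the samples at 2 h held 12.0, 6.58 and 2.97 CPM, and those at 24 h held 53.9, 59.4 and 53.4 CPM. The groups at 24 h and in control were far apart, while the lowest sample at 2 h lay among the controls. The log2 fold change at 24 h was 4.24 ± 0.36 (SE, n = 3 against 3, edgeR adjusted p = 1.6e-12), about 18.9-fold. In CT26, the controls held 14.2, 11.2 and 13.7 CPM and the samples at 24 h held 67.3, 96.8 and 97.4 CPM. That change was 2.76 ± 0.20 on the log2 scale (SE, n = 3 against 3, edgeR adjusted p = 4.87e-15).

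Ifi35 (ENSMUSG00000010358), whose protein binds NMI, lies on chromosome 11 from 101448407 to 101458698 on the plus strand. The YUMM2.1 controls held 52.4, 36.6 and 39.3 CPM and the samples at 24 h held 113, 138 and 98.0 CPM. No sample at 24 h overlapped the controls, and the log2 fold change was 1.40 ± 0.17 (SE, edgeR adjusted p = 2.97e-08). In CT26, the controls held 32.6, 25.6 and 26.7 CPM and the samples at 24 h held 121, 131 and 122 CPM. The log2 fold change there was 2.14 ± 0.18 (SE, edgeR adjusted p = 2.08e-12). At 2 h, Ifi35 held 41.8 to 49.7 CPM in YUMM2.1 and 30.7 to 34.8 CPM in CT26, with the fold changes short of the threshold in both lines.

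Samd9l (ENSMUSG00000047735), on chromosome 6 from 3372257 to 3399572 on the minus strand, was the sole member called at 2 h in naïve cells. In YUMM2.1 the controls held 14.2, 3.66 and 3.86 CPM, the samples at 2 h held 31.6, 21.9 and 24.5 CPM and those at 24 h held 42.7, 37.9 and 27.6 CPM. All treated samples lay above all controls. The log2 fold change was 1.70 ± 0.36 at 2 h (SE, edgeR adjusted p = 0.0102) and 2.1 ± 0.36 at 24 h (SE, edgeR adjusted p = 9.03e-05). The call at 2 h was lost without replicate 2 of every group (adjusted p = 0.138) or without replicate 3 (adjusted p = 0.416). In CT26, Samd9l held 5.67, 9.37 and 7.73 CPM in controls, 9.68, 10.3 and 7.35 CPM at 2 h, and 77.2, 62.8 and 43.1 CPM at 24 h. The 2 h samples overlapped the controls, and the log2 fold change at 24 h was 2.92 ± 0.28 (SE, edgeR adjusted p = 6.71e-11).

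The share of all genes that passed at 2 h was 0.24% in YUMM2.1 and 0.235% in CT26. In CT26, 0 of 9 members passed at 2 h with edgeR and 0 with DESeq2, and 1 (Sp110) had an unadjusted p below 0.05. Of all 8516 genes there, 310 had one. From 2 h to 24 h, Nmi and Ifi35 rose in YUMM2.1 (2 of 7 members, against 0.563% of all genes). The 6 responding members rose over the same interval in CT26 (6 of 9, against 2.05% of all genes). Of these, Daxx missed the threshold without replicate 1 (adjusted p = 0.427), and Sp110 missed it without replicate 2 (adjusted p = 0.303) or 3 (adjusted p = 0.189).

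**Figure D1:**
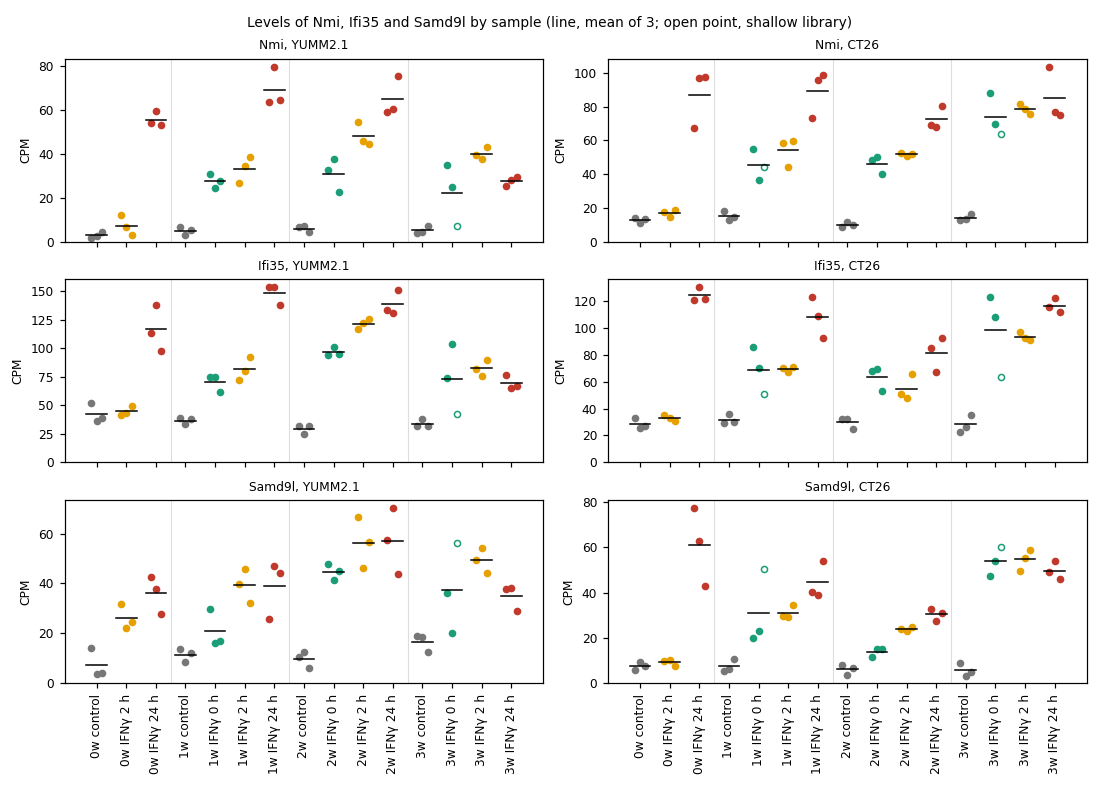
Level of Nmi, Ifi35 and Samd9l in CPM (vertical axis, linear from 0) in every sample of the 15 groups of YUMM2.1 (left) and CT26 (right), with a black line at the mean of 3 replicates. Grey points are BSA controls, green points IFNγ without rechallenge, yellow and red points 2 h and 24 h of fresh IFNγ, and open points the shallow libraries. In both lines the 24 h samples of naïve cells stand above the controls, and after 3 weeks the samples before rechallenge and 24 h after it overlap.

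Of the genes of the Sp100 cluster, Sp100 and Sp140 differed between the lines in level before any treatment. Sp140, Sp100 and Sp110 lie side by side on chromosome 1, Sp110 (ENSMUSG00000070034) from 85576899 to 85598817 on the minus strand, Sp140 (ENSMUSG00000070031) from 85600378 to 85645037 and Sp100 (ENSMUSG00000026222) from 85649988 to 85709998 on the plus strand. In 0-week controls, Sp100 held 1.09, 3.66 and 0 CPM in YUMM2.1 and 13.5, 8.74 and 14.3 CPM in CT26. Sp140 held 0, 1.22 and 0.644 CPM in YUMM2.1 and 8.51, 11.9 and 8.91 CPM in CT26. No YUMM2.1 control reached any CT26 control for either gene.

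With both lines in one fit, 4 of 9 members were lower in YUMM2.1 controls and 0 were higher, where 46% of 10339 genes differed between the lines. The log2 differences, YUMM2.1 less CT26, were -4.28 ± 0.72 for Sp140, -3.41 ± 0.56 for Sp100, -2.33 ± 0.38 for Nmi and -0.43 ± 0.12 for Xaf1 (SE, edgeR adjusted p = 7.22e-07, 3.49e-07, 3.98e-07 and 0.00132). The Xaf1 difference lost its call without replicate 1 (adjusted p = 0.141). For Sp110 the difference was -3.12 ± 1.65 and missed the threshold (SE, edgeR adjusted p = 0.117). A share of 4 in 9 is near the share of all genes, so it says nothing particular to these members.

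In CT26, Sp100 stood at 53.5, 51.0 and 55.0 CPM after 24 h in naïve cells, above all 3 controls, a log2 fold change of 2.13 ± 0.23 (SE, n = 3 against 3, edgeR adjusted p = 1.31e-09). At 2 h it stood at 15.5, 5.91 and 14.7 CPM, across the range of the controls. In YUMM2.1, Sp100 held 1.12, 2.05 and 3.82 CPM at 24 h, from 1, 2 and 9 counts. That difference, 1.03 ± 0.95 on the log2 scale (SE, edgeR adjusted p = 0.910), had an approximate 95% interval from -0.82 to 2.89. The difference between the lines in this response was -1.02 ± 0.96 (SE, edgeR adjusted p = 0.824), so a response of the size seen in CT26 could not be told from none at this depth.

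Sp110 had 1 count in each of the 3 CT26 controls, 10, 6 and 7 counts at 2 h, and 4, 14 and 27 counts at 24 h. Scaled to the library, these were 0.709, 0.625 and 0.594 CPM in controls, 6.45, 4.43 and 4.67 CPM at 2 h, and 7.92, 23.8 and 20.1 CPM at 24 h. Every treated sample lay above every control. The ratio of summed counts to control at 2 h was 7.74, with an exact 95% interval of 2.34 to 40.25. The gene missed the threshold there (edgeR adjusted p = 0.1). At 24 h the ratio of summed counts to control was 28.7, with an exact 95% interval of 9.20 to 144 that covers counting error only, and the gene passed the test (edgeR adjusted p = 3.83e-07). Sp140 held 15.8, 11.9 and 17.1 CPM at 24 h, also above every control, though the lowest was at 11.89 CPM against 11.87 CPM in the highest control. Its log2 difference from control of 0.64 ± 0.35 (SE) missed the threshold (edgeR adjusted p = 0.493). In YUMM2.1 the counts of Sp110 in naïve cells were 0 in all 6 samples of the control and 2 h groups and 1 in each sample at 24 h.

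**Figure D2:**
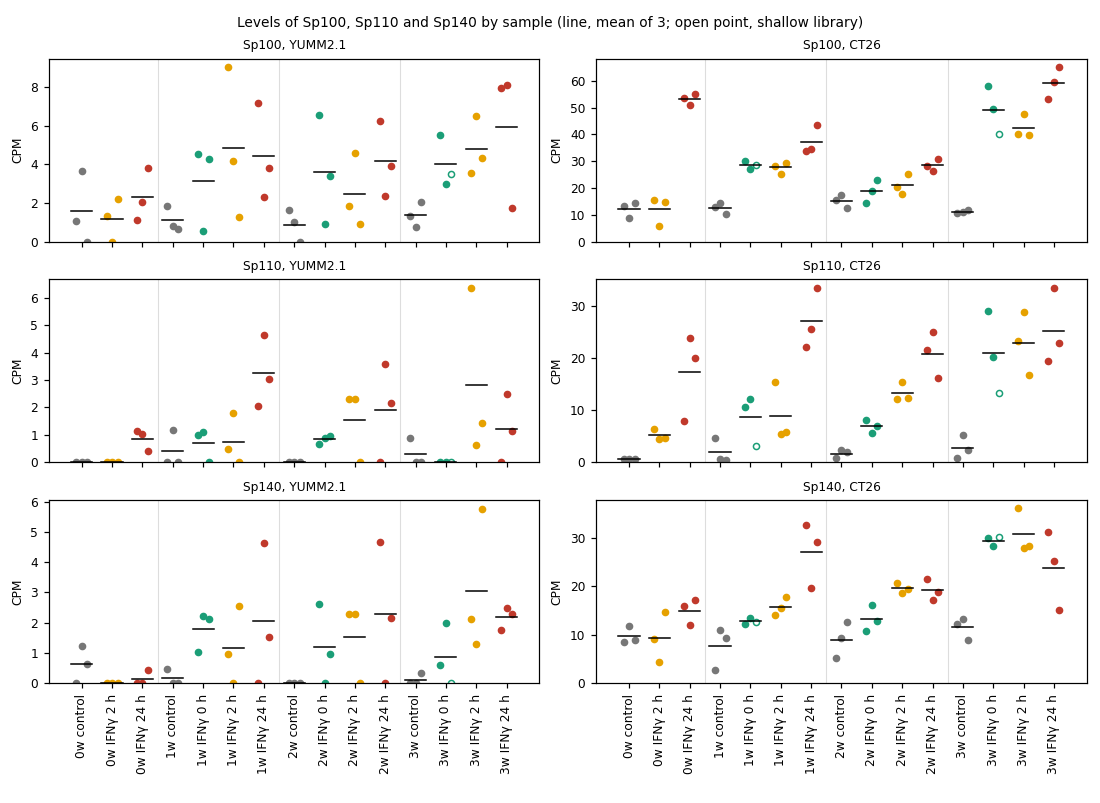
Level of Sp100, Sp110 and Sp140 in CPM (vertical axis, linear from 0, its range differing between panels) in every sample of both lines, with a black line at the mean of 3 replicates and the colours of the plot of Nmi, Ifi35 and Samd9l. In CT26, Sp100 and Sp110 stand above the controls at 24 h in naïve cells and all 3 genes stand above them at 3 weeks, while YUMM2.1 samples stay at or below 9.01 CPM throughout.

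Reads of these 3 genes may be shared with near-identical copies. In the GENCODE M21 transcripts, all 9 transcripts of Sp110 and all 6 of Sp140 shared a stretch with another gene that reached their last 300 bases. Such a stretch had at least 60 bases at 90% identity or more, on either strand. Anywhere in a transcript, the longest same-strand stretch for Sp110 was 2609 bases at 97.6% identity with Gm16026. For Sp140 it was 1073 bases at 95% with Gm8613. Of the 13 Sp100 transcripts, 4 had a shared end, and the longest stretch anywhere was 399 bases at 99.0% with Gm7609. In CT26, Gm7609 held 602 counts and rose by a log2 fold change of 2.36 ± 0.51 at 24 h (SE, edgeR adjusted p = 0.00238), beside the change of Sp100. Sp110 also overlaps G530012D18Rik on the other strand, which had 0 counts in both lines. How the counting divided shared reads was not tested.

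Daxx (ENSMUSG00000002307), which deposits histone H3.3 with ATRX, lies on chromosome 17 from 33909414 to 33915590 on the plus strand and responded in CT26. Its CT26 controls held 25.5, 15.6 and 9.51 CPM, and the samples at 24 h held 53.5, 39.1 and 49.1 CPM, without overlap. The log2 fold change was 1.5 ± 0.29 (SE, n = 3 against 3, edgeR adjusted p = 0.000645), and without replicate 3 it was 1.17 (adjusted p = 0.0577). In YUMM2.1, the controls held 19.6, 24.4 and 35.4 CPM and the samples at 24 h held 15.7, 21.5 and 23.8 CPM. These overlapped, with a log2 difference of -0.34 ± 0.28 (SE, edgeR adjusted p = 0.900).

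The difference between the lines in the 24 h response of Daxx was itself tested and was -1.87 ± 0.41 on the log2 scale, YUMM2.1 less CT26 (SE, edgeR adjusted p = 0.0277). Daxx was 1 of the 9 genes of all 10339 that passed this test (0.087%), and the other 8 members did not pass it. The call was lost without replicate 1, 2 or 3 (adjusted p = 0.224, 0.151 and 0.476) and when only the compared groups were fitted (adjusted p = 0.220). DESeq2 gave no adjusted p for it. Tapbp, an antigen-presentation gene, starts 309 bases beyond the end of Daxx on the same strand. It rose at 24 h in both lines, by 3.73 ± 0.36 in YUMM2.1 and 2.81 ± 0.25 in CT26 (log2 fold change ± SE, edgeR adjusted p = 7.87e-11 and 1.2e-11). Its part in the Daxx counts was not tested. For the 2 h responses, 0 members and 0% of all genes differed between the lines with edgeR (DESeq2, 0 members), and 2 members, Nmi and Samd9l, had an unadjusted p below 0.05. Of all 10339 genes, 365 had one.

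Pml (ENSMUSG00000036986), the scaffold of the bodies, lies on chromosome 9 from 58218076 to 58249786 on the minus strand and passed no test in either line. It had 719 counts over the 45 YUMM2.1 samples and 564 over the 45 CT26 samples. In YUMM2.1 controls it held 6.00, 8.55 and 7.08 CPM, at 2 h of IFNγ 10.2, 10.2 and 11.1 CPM, and at 24 h 7.87, 10.2 and 16.1 CPM. All samples at 2 h lay above all controls, with a log2 difference of 0.58 ± 0.40 that missed the threshold (SE, edgeR adjusted p = 1), while those at 24 h overlapped them. The lowest unadjusted p of Pml was 2 h after rechallenge at week 1 in YUMM2.1, where the difference was 0.99 ± 0.37 (SE, edgeR adjusted p = 0.314). The log2 difference at 24 h was 0.79 ± 0.40 (SE, edgeR adjusted p = 0.722), with an approximate 95% interval from 0.01 to 1.57. In CT26, the controls held 6.38, 9.99 and 13.7 CPM and the samples at 24 h held 5.94, 8.49 and 13.4 CPM. That difference was 0.01 ± 0.43 (SE, edgeR adjusted p = 0.999), with an interval from -0.83 to 0.85, which leaves out a doubling. After 3 weeks, Pml held 8.55, 13.0 and 24.5 CPM under IFNγ in YUMM2.1, where the highest value came from 7 counts in the shallow library, and 11.1, 9.35 and 11.4 CPM in its controls. In CT26 it held 7.03, 10.1 and 6.69 CPM against 6.55, 6.65 and 8.85 CPM. The interval at 3 weeks was -0.50 to 1.01 for YUMM2.1, and for CT26 it was -0.84 to 1.09, so that changes within them were not detectable at this depth. The YUMM2.1 difference was 0.255 ± 0.386 (SE, edgeR unadjusted p = 0.656). That p is larger than this SE gives, so the YUMM2.1 interval may be too narrow.

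Xaf1 (ENSMUSG00000040483), on chromosome 11 from 72301629 to 72313733 on the plus strand, had 57570 counts in YUMM2.1 and 61843 in CT26, and its changes were small. In YUMM2.1 it held 863, 1056 and 1046 CPM in controls and 977, 889 and 778 CPM at 24 h. In CT26 it held 1223, 1125 and 1173 CPM in controls and 1487, 1386 and 1097 CPM at 24 h. Both pairs of groups overlapped. The log2 differences were -0.17 ± 0.12 and 0.17 ± 0.10 (SE, edgeR adjusted p = 0.845 and 0.564), with approximate 95% intervals from -0.39 to 0.06 and from -0.03 to 0.37. Xaf1 rose by 0.49 ± 0.12 on the log2 scale 2 h after rechallenge at 3 weeks in YUMM2.1 (SE, edgeR adjusted p = 0.0209). That comparison includes the shallow library, and without it the change was 0.41 (adjusted p = 0.134). It was also lost without replicate 1 (adjusted p = 0.385) or replicate 3 (adjusted p = 0.189).

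Of the 5 Xaf1 reference transcripts, 1 had a stretch shared with other genes that reached its last 300 bases. Such a stretch had at least 60 bases at 90% identity or more, and 559 other genes shared one there. These counts include matches on the opposite strand, so not all of them could share reads with a member. Anywhere in the Xaf1 transcripts, 897 other genes shared one. The same held for 1 of the 12 Pml transcripts, with 768 other genes there and 820 anywhere. For Nmi and Daxx, 0 genes shared such a stretch, and for Ifi35 and Samd9l 0 genes shared one near the 3′ end. The part of shared sequence in the level of Xaf1 was not tested.

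**Figure D3:**
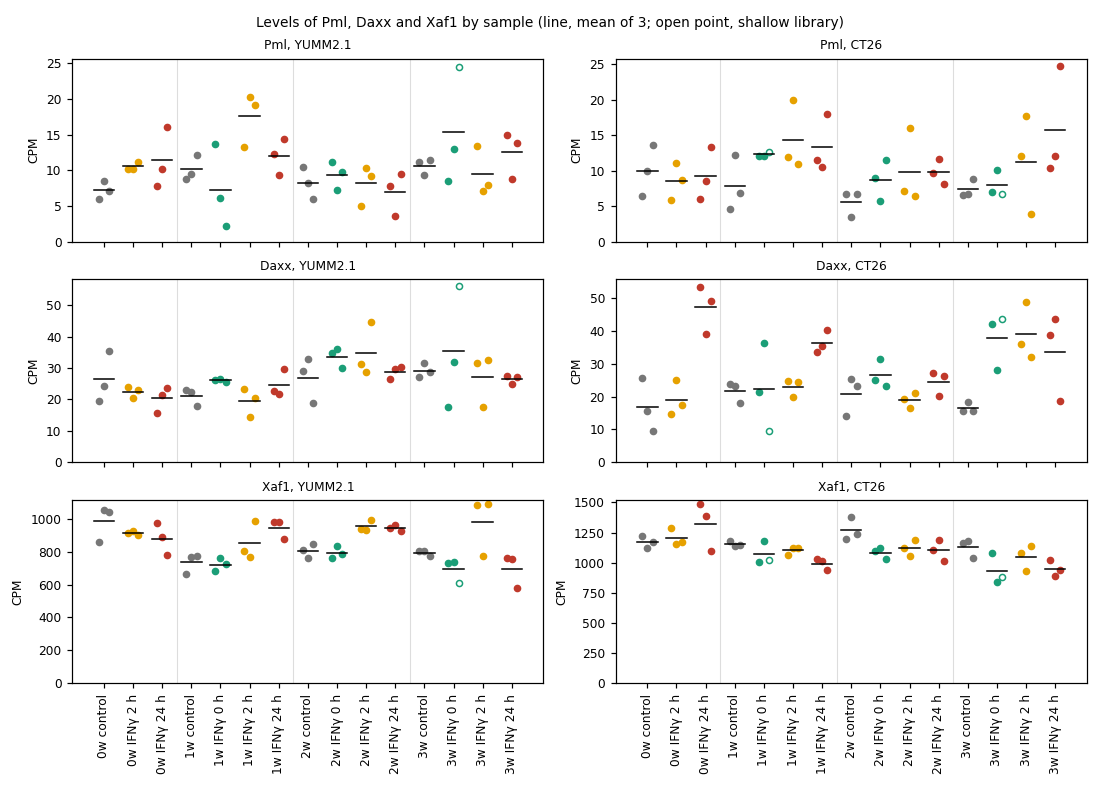
Level of Pml, Daxx and Xaf1 in CPM (vertical axis, linear from 0, its range differing between panels) in every sample of both lines, with a black line at the mean of 3 replicates and the colours of the plot of Nmi, Ifi35 and Samd9l. Daxx stands above its controls at 24 h and at 3 weeks in CT26, and the Pml and Xaf1 samples at 24 h overlap the controls in naïve cells of both lines.

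Under continuous IFNγ, compared with controls of the same week, Nmi and Ifi35 were higher in both lines at every week. In YUMM2.1, 2 of 7 tested members rose at week 1, 3 at week 2 and 2 at week 3, where 0.73%, 1.12% and 0.97% of all genes passed. In CT26, 5 of 9 rose at week 1, 2 at week 2 and 7 at week 3, where 0.728%, 1.67% and 7.23% of all genes passed. No member fell in these comparisons, with edgeR or DESeq2. Sp100 in YUMM2.1 was not called, at 1.36 ± 0.86, 1.98 ± 0.99 and 1.55 ± 0.83 over weeks 1, 2 and 3 (log2 fold change ± SE, edgeR adjusted p = 0.910, 0.696 and 0.523). It had 12, 18 and 13 summed counts under IFNγ and 8, 3 and 11 in controls. The approximate 95% intervals reached up to 3.06, 3.92 and 3.17, so changes within them were not detectable at this depth.

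In YUMM2.1, Nmi held 34.8, 25 and 7.01 CPM after 3 weeks of IFNγ and 3.99, 4.29 and 7.24 CPM in controls. The lowest treated value, from 2 counts in the shallow library, lay just below the highest control. The log2 fold change was 2.33 ± 0.33 (SE, n = 3 against 3, edgeR adjusted p = 1.71e-06), and without replicate 1 of every group it was 1.75 (adjusted p = 0.0652). At weeks 1 and 2 the Nmi changes were 2.46 ± 0.32 and 2.35 ± 0.35 (SE, edgeR adjusted p = 2.37e-07 and 6.68e-06). Ifi35 rose by 0.98 ± 0.17, 1.71 ± 0.18 and 1.22 ± 0.17 on the log2 scale at weeks 1, 2 and 3 (SE, edgeR adjusted p = 9.37e-05, 1.05e-09 and 1.88e-06), of which week 1 missed the threshold without replicate 1 (adjusted p = 0.0950).

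Samd9l in YUMM2.1 rose at week 2, when it held 47.7, 41.3 and 45.1 CPM against 6.01 to 12.3 CPM in controls. This was a log2 fold change of 2.23 ± 0.35 (SE, edgeR adjusted p = 1.68e-05). At week 3, IFNγ samples held 36.0, 20.0 and 56.1 CPM against 19.1, 18.3 and 12.4 CPM, without overlap, and the difference missed the threshold. At week 1 they held 16.1 to 29.8 CPM against 8.34 to 13.8 CPM, also without overlap, and the difference missed it too. The edgeR unadjusted p was below 0.05 at both weeks, as for 570 of 9589 genes at week 1 and 1011 at week 3. In CT26 at week 3, Samd9l held 47.4, 54.1 and 60.2 CPM against 9.0, 2.95 and 4.91 CPM, a log2 fold change of 3.24 ± 0.30 (SE, edgeR adjusted p = 3.05e-11). The 3-week response of Samd9l differed between the lines by -2.30 ± 0.46 on the log2 scale, YUMM2.1 less CT26 (SE, edgeR adjusted p = 0.00526). It was the sole member among the 0.106% of genes that passed this test, and the call was lost without replicate 2 (-1.61, adjusted p = 0.991) and with the compared groups alone (adjusted p = 0.109). The median of all genes in this comparison was -0.10.

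In CT26, Sp100 and Sp110 were lower at week 2 than at week 3 of IFNγ. Sp100 held 29.9, 27.0 and 28.5 CPM after 1 week of IFNγ, 14.3, 19.0 and 23.1 CPM after 2 weeks and 58.0, 49.6 and 40.1 CPM after 3 weeks, while its controls stayed between 10.2 and 17.2 CPM. The week 2 samples overlapped their controls, and those of weeks 1 and 3 did not. The log2 fold changes against control were 1.22 ± 0.25, 0.35 ± 0.25 and 2.18 ± 0.23 (SE, edgeR adjusted p = 0.00272, 0.709 and 1.28e-09). Sp110 held 10.7, 12.1 and 3.16 CPM at week 1, 8.04, 5.70 and 6.93 CPM at week 2 and 29.0, 20.3 and 13.4 CPM at week 3. Its changes at weeks 1 and 3 passed, at 2.60 ± 0.60 and 2.96 ± 0.47 (SE, edgeR adjusted p = 0.0124 and 1.32e-05). At week 2 the ratio of its summed counts to control was 4.79, with an exact 95% interval of 1.82 to 15.9, and it did not pass (edgeR adjusted p = 0.0960).

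Sp140 and Daxx rose in CT26 at week 3. Sp140 held 29.9, 28.2 and 30.1 CPM against 12.3, 13.3 and 8.85 CPM, a log2 fold change of 1.37 ± 0.32 (SE, edgeR adjusted p = 0.00375). Daxx held 42.2, 28.2 and 43.5 CPM against 15.5, 18.5 and 15.7 CPM, a change of 1.16 ± 0.31 (SE, edgeR adjusted p = 0.0133). Neither pair of groups overlapped. Without replicate 1 or 3, Sp140 had an adjusted p of 0.0619 or 0.0604 and Daxx of 0.227 or 0.0597. Ifi35 and Nmi in CT26 rose by 1.85 ± 0.19 and 2.39 ± 0.20 at week 3 (SE, edgeR adjusted p = 1.93e-10 and 8.01e-13).

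Of the 5 calls of week 1 in CT26, Nmi kept its call without each replicate in turn. The others were lost without replicate 1 (Ifi35, adjusted p = 0.264, and Sp100, adjusted p = 0.384), replicate 2 (Samd9l, adjusted p = 0.0524, and Sp110, adjusted p = 0.418) or replicate 3 (Sp100, adjusted p = 0.158, and Sp110, adjusted p = 0.300). At week 2, Ifi35 was lost without replicate 2 (adjusted p = 0.0506).

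**Figure D4:**
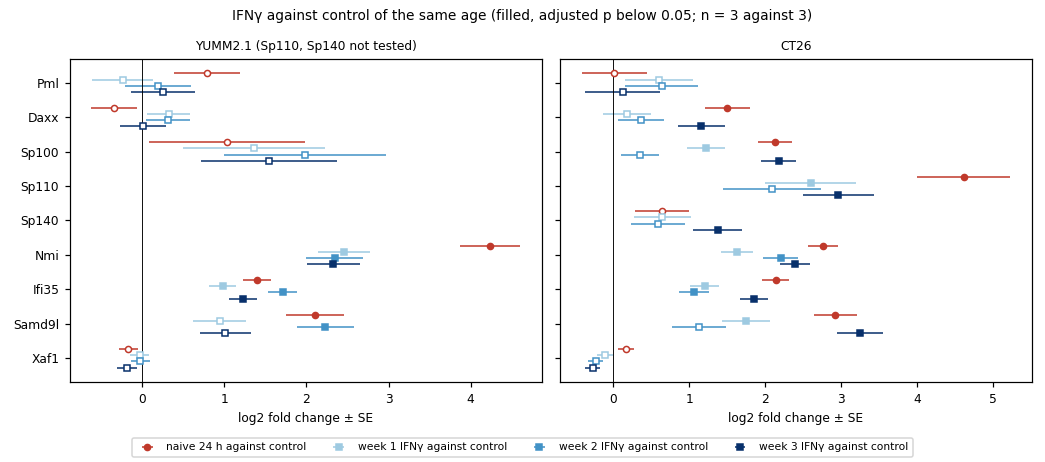
Log2 fold change against the control of the same age (horizontal axis, ± SE) for 24 h of IFNγ in naïve cells (red circles) and for 1, 2 and 3 weeks of continuous IFNγ (light to dark blue squares) in YUMM2.1 (left) and CT26 (right). Filled symbols passed the test over all genes. Nmi reaches 4.24 in YUMM2.1, Samd9l is above 2.9 at 24 h and at 3 weeks in CT26, and Pml and Xaf1 have open symbols throughout.

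Between 2 and 3 weeks of IFNγ, 6 of 9 members rose in CT26, where 3.17% of all genes passed. Samd9l rose from 11.6, 15.2 and 15 CPM to 47.4, 54.1 and 60.2 CPM, a log2 fold change of 1.90 ± 0.27 (SE, edgeR adjusted p = 4.98e-06). Sp110, Sp100 and Sp140 rose by 1.70 ± 0.42, 1.41 ± 0.22 and 1.15 ± 0.32, and Ifi35 and Nmi by 0.74 ± 0.17 and 0.73 ± 0.17 (SE, edgeR adjusted p = 0.0130, 3.84e-05, 0.0327, 0.00860 and 0.00968). Samd9l kept its call without each replicate in turn, and the other 5 lost theirs without replicate 1 (adjusted p = 0.185, 0.129, 0.284, 0.284 and 0.248). Without replicate 2, Sp110, Sp140, Ifi35 and Nmi missed the threshold (adjusted p = 0.185, 0.157, 0.199 and 0.0856), and without replicate 3, Sp140 and Nmi did (adjusted p = 0.105 and 0.0876). Without the shallow libraries, Sp140 was at adjusted p = 0.0538.

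In YUMM2.1, 0 of 7 members changed between 2 and 3 weeks with edgeR or DESeq2, 0 had an unadjusted p below 0.05, and 0.073% of all genes passed. Of all 9589 genes, 758 had an unadjusted p below 0.05. From 1 to 2 weeks, 0 members passed with edgeR in YUMM2.1 (0.261% of all genes) and 0 in CT26 (0.341%). In YUMM2.1, 2 members (Ifi35 and Samd9l) had an unadjusted p below 0.05 and DESeq2 called 1 (Samd9l), and in CT26, 2 (Sp100 and Samd9l) had one and DESeq2 called 0. Against 24 h in naïve cells, 3 weeks of IFNγ left 0 of 7 members different in YUMM2.1 with edgeR (0.594% of all genes). There, 3 members had an unadjusted p below 0.05 (Ifi35, Nmi and Xaf1) and DESeq2 called 1 (Nmi). Over all genes, 870 had one and DESeq2 called 84. In CT26, 1 of 9 differed by that comparison (4.8% of all genes), Xaf1 at -0.50 ± 0.10 on the log2 scale (SE, edgeR adjusted p = 0.00277). All 3 of its 3-week samples lay below all 3 samples of naïve cells at 24 h, and the call was lost without replicate 1 (adjusted p = 0.0948) or 2 (adjusted p = 0.214).

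Control cultures did not show a called change of any member with edgeR. Over weeks 1, 2 and 3 against week 0, 0.073%, 0.0209% and 0.521% of all genes passed in YUMM2.1 and 0.0117%, 0.247% and 0.916% in CT26. At an unadjusted p below 0.05 there were 1, 2 and 3 members in YUMM2.1 and 0, 0 and 1 in CT26. Over all genes there were 762, 442 and 799 of 9589 in YUMM2.1 and 686, 903 and 1025 of 8516 in CT26. DESeq2 called 1 member, Xaf1 at week 1 in YUMM2.1, with a log2 change of -0.44 (adjusted p = 0.00307). In that comparison it called 131 genes in all.

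Rechallenge asked whether cells kept in IFNγ still answered fresh IFNγ. The response of Nmi, Ifi35 and Samd9l at 24 h was smaller after 3 weeks of exposure than in naïve cells, in both lines. In YUMM2.1, Nmi stood at 34.8, 25 and 7.01 CPM before rechallenge at 3 weeks, 39.5, 37.6 and 43.3 CPM after 2 h and 25.5, 28.1 and 29.3 CPM after 24 h. The 24 h samples lay within the range before rechallenge. Subtracting the naïve 24 h response from the one at 3 weeks gave -4.19 ± 0.48 for Nmi, -1.60 ± 0.24 for Ifi35 and -2.05 ± 0.48 for Samd9l (log2 scale, SE, edgeR adjusted p = 1.38e-08, 8.13e-06 and 0.0166). These were 3 of 7 tested members, all lower, where 0.615% of all genes passed. Samd9l missed the threshold without the shallow libraries (-1.82, adjusted p = 0.0709), without replicate 2 (adjusted p = 0.0863) and without replicate 3 (adjusted p = 0.478), and Ifi35 without replicate 2 (adjusted p = 0.194).

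In CT26, the 24 h response was smaller at 3 weeks than in naïve cells for 6 of 9 members, where 1.2% of all genes passed. Nmi stood at 87.8, 69.9 and 63.5 CPM before rechallenge and at 104, 77.1 and 75.0 CPM after 24 h, Ifi35 at 123, 108 and 63.5 and then 115, 123 and 112 CPM, and Samd9l at 47.4, 54.1 and 60.2 and then 49.3, 53.9 and 45.9 CPM. In each case the groups overlapped. The differences between the responses were -2.61 ± 0.26 for Nmi, -1.98 ± 0.25 for Ifi35, -3.00 ± 0.37 for Samd9l, -1.91 ± 0.30 for Sp100 and -1.66 ± 0.42 for Daxx (log2 scale, SE, edgeR adjusted p = 3.69e-10, 1.17e-07, 9.12e-08, 2.63e-05 and 0.0256). Sp110 also passed (edgeR adjusted p = 6.76e-05), with 3 counts in the naïve controls behind its value. Daxx missed the threshold without replicate 1 (adjusted p = 0.199) or replicate 3 (adjusted p = 0.504), and Sp100 without replicate 1 (adjusted p = 0.0524). Before rechallenge, every 3-week sample of these 6 members in CT26 stood above every 0-week control, while in YUMM2.1 this did not hold for Ifi35, whose lowest sample was at 42.1 CPM against 52.4 CPM in the highest control.

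**Figure D5:**
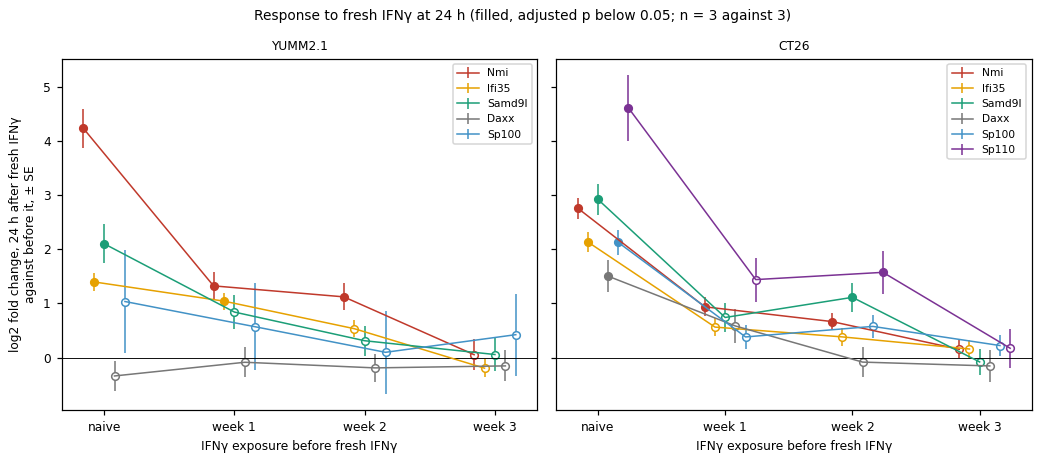
Log2 fold change (vertical axis, ± SE) of 5 members in YUMM2.1 and 6 in CT26, 24 h after fresh IFNγ against before it, in naïve cells and after 1, 2 and 3 weeks of exposure, with lines joining the values of a gene. Filled points passed the test over all genes. In naïve cells the changes of Nmi, Ifi35 and Samd9l lie at 1.40 or above, and at 3 weeks the changes shown lie between -0.20 and 0.42 and none passed.

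At 24 h of rechallenge itself, the calls were few at 1 and 2 weeks. In YUMM2.1 at week 1, Nmi and Ifi35 rose by 1.32 ± 0.26 and 1.04 ± 0.16 (SE, edgeR adjusted p = 0.000856 and 1e-05), 2 of 7 members against 1.42% of all genes. At week 2, Nmi rose by 1.12 ± 0.25 (SE, edgeR adjusted p = 0.0128), 1 of 7 members against 0.615% of all genes. In CT26, Nmi rose at week 1 by 0.94 ± 0.18 (SE, edgeR adjusted p = 0.000713), 1 of 9 members against 1.32%. At week 2, Nmi, Samd9l and Sp110 rose by 0.66 ± 0.16, 1.11 ± 0.26 and 1.57 ± 0.39 (SE, edgeR adjusted p = 0.0358, 0.0256 and 0.0396), 3 of 9 members against 0.658%. Nmi missed the threshold there without a filter on low counts (adjusted p = 0.169) and with DESeq2 (adjusted p = 0.0507). Of these calls, Ifi35 at week 1 in YUMM2.1 held without each replicate in turn. Nmi at week 1 was lost without replicate 2 in YUMM2.1 (adjusted p = 0.217) and without replicates 2 or 3 in CT26 (adjusted p = 0.235 and 0.0697). The calls of week 2 were lost without each replicate in turn, with adjusted p from 0.0960 to 0.374 for Nmi in YUMM2.1, and in CT26 from 0.189 to 0.380 for Nmi, 0.0503 to 0.824 for Samd9l and 0.0992 to 0.749 for Sp110.

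At 3 weeks, 0 members and 0% of all genes passed 24 h after rechallenge in either line with edgeR, and DESeq2 called 0 members. At an unadjusted p below 0.05 there were 0 members in YUMM2.1 and 1 in CT26, Pml at 0.97 ± 0.47. Over all genes there were 351 in YUMM2.1 and 439 in CT26. At 2 h, the share of all genes that passed was 0.615%, 0.428% and 1.08% over weeks 1, 2 and 3 in YUMM2.1, and for CT26 it was 0.376%, 0.305% and 0.0117%. With edgeR and with DESeq2, 0, 0 and 1 members passed in YUMM2.1, the 1 being Xaf1 at week 3, and 0 at each week in CT26. In the comparison that called Xaf1, DESeq2 called 119 genes in all. The unadjusted p was below 0.05 for 2, 3 and 2 members in YUMM2.1 and for 0, 2 and 0 in CT26. The difference of the 2 h responses at 3 weeks and in naïve cells was called for 0 members with edgeR in both lines, where 0.115% of all genes passed in YUMM2.1 and 0.211% in CT26. There, 2 members (Xaf1 and Samd9l) had an unadjusted p below 0.05 in YUMM2.1 and 1 (Sp110) in CT26, and DESeq2 called 1 (Xaf1) and 0.

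In YUMM2.1, Sp110 and Sp140 were followed by their counts alone. Sp110 had 0, 0 and 0 counts after 3 weeks of IFNγ and 9, 1 and 2 counts 2 h after rechallenge, with most of the counts in 1 sample. The exact 95% interval of that ratio started at 1.945 and had no upper limit, and it covers counting error only. Sp140 had 2, 4 and 1 counts after 1 week of IFNγ and 1, 0 and 0 in controls. The ratio was 13.1, with an exact 95% interval from 1.69 to 592 that covers counting error only. At weeks 2 and 3, Sp140 had 6 counts against 0 and 3 against 1, and Sp110 had 4 against 3, 4 against 0 and 0 against 2 at weeks 1, 2 and 3, with intervals of the ratio that all included 1.

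Over the 15 group means of log2 CPM, the genes most like each member were described by Pearson's r, with no test. The means share libraries and include the treated groups that set the pattern. In YUMM2.1, Nmi was most like Tapbp, Psme2 and Erap1 (r = 0.980, 0.979 and 0.978), which serve antigen processing, and Ifi35 was most like Ifitm3, Psmb10 and Psme2 (r = 0.984, 0.979 and 0.975). Samd9l was most like Gbp6, Gm4841 and Iigp1 (r = 0.965, 0.955 and 0.952), of which Gbp6 and Iigp1 are interferon-inducible GTPases. In CT26, Nmi was most like Zbp1, Lgals3bp and Oasl2 (r = 0.993, 0.985 and 0.983), Samd9l like Ddx60, Trim30a and Ifi44 (r = 0.986, 0.986 and 0.980), and Ifi35 like Phf11d, Isg20 and Apol9b (r = 0.984, 0.979 and 0.976).

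Sp100 in CT26 was most like Isg15, Ifit3 and Phf11d (r = 0.979, 0.969 and 0.966), Sp110 like Gbp2, Ly6a and Gbp7 (r = 0.984, 0.982 and 0.976), and Sp140 like Parp12, Sp3 and Gbp4 (r = 0.939, 0.937 and 0.935). Daxx in CT26 was most like Naa20, Oas1b and Zfp773 (r = 0.937, 0.923 and 0.899). In YUMM2.1, Sp100 was most like H2-D1 (r = 0.932) and Daxx most like Ctsb (r = 0.871). Pml was most like Mgrn1 in YUMM2.1 (r = 0.882) and Arhgap21 in CT26 (r = 0.887). Xaf1 was most like Gm26764, 1700120C14Rik and Gm29773 in YUMM2.1 (r = 0.881, 0.875 and 0.869) and Yae1d1, Srpk1 and Mtg2 in CT26 (r = 0.959, 0.948 and 0.947). Among the members, Ifi35 and Nmi went together with r = 0.949 in YUMM2.1 and 0.974 in CT26, and Pml and Nmi with r = 0.09 and 0.630.

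The list of SUMO enzymes and partners of the PML body had 37 genes, of which YUMM2.1 gave a test for 36 and CT26 for 35. The share of all genes that passed was 0.886% and 2.04% at 24 h in naïve cells and 0.97% and 7.23% at 3 weeks, in YUMM2.1 and CT26 respectively. In naïve cells at 24 h, 1 rose and 0 fell in YUMM2.1, with a median log2 fold change of 0.02, and 2 rose and 0 fell in CT26, with a median of 0.02. Isg20, an interferon-inducible exonuclease found in these bodies, rose in both, by 1.79 ± 0.35 and 2.01 ± 0.20 (SE, edgeR adjusted p = 0.00106 and 2.57e-10), and H3f3b, which encodes histone H3.3, rose in CT26 by 0.53 ± 0.14 (edgeR adjusted p = 0.0354). At 3 weeks against control, 0 of 36 passed in YUMM2.1. In CT26, 3 rose (Isg20, Ep300 and Atrx, by 2.19 ± 0.21, 1.75 ± 0.53 and 0.76 ± 0.23) and 1 fell (Sumo2, by -0.45 ± 0.11), with edgeR adjusted p of 3.26e-11, 0.0321, 0.0353 and 0.00969. The list's median there was 0.42, beside 0.02 over all tested genes. Isg20 was also the 1 gene of the list in each line whose 24 h response was smaller at 3 weeks than in naïve cells, the difference being -1.94 ± 0.49 for YUMM2.1 and -1.77 ± 0.27 for CT26 (SE, edgeR adjusted p = 0.0397 and 1.04e-05).

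Of the upstream interferon pathway, Irf1, a transcription factor, rose at 2 h in naïve cells of both lines, by 4.07 ± 0.21 for YUMM2.1 and 3.46 ± 0.22 for CT26 (log2 fold change ± SE, edgeR adjusted p = 2.21e-19 and 1.79e-15). At 24 h its changes were 2.82 ± 0.23 and 2.31 ± 0.27 (SE, edgeR adjusted p = 4.2e-13 and 1.07e-08). In CT26, Usp18, a negative regulator of interferon signalling, and Stat2, a transcription factor of the type I pathway, rose at 24 h by 3.93 ± 0.27 and 3.14 ± 0.49 (SE, edgeR adjusted p = 2.05e-15 and 1.25e-05). After 3 weeks the change of Irf1 from control was 1.47 ± 0.23 for YUMM2.1 cells and 2.53 ± 0.22 for CT26 cells (SE, edgeR adjusted p = 2.97e-05 and 3.47e-12). The 24 h response of Irf1 was smaller at 3 weeks than in the naïve state, with differences of -2.65 ± 0.33 and -2.55 ± 0.33 (SE, edgeR adjusted p = 8.35e-08 and 2.27e-07), beside those of Nmi, Ifi35 and Samd9l. At 2 h of rechallenge at 3 weeks, Irf1 rose in YUMM2.1, by 2.78 ± 0.19 (SE, edgeR adjusted p = 7.77e-15), and was not called in CT26. The 2 h response at 3 weeks was smaller than the naïve one in CT26, with a difference of -3.00 ± 0.30 (SE, edgeR adjusted p = 2e-09). That difference was not called for Irf1 in YUMM2.1, and whether it differed between the lines was not tested.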

How the data were processed

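The assay was 3′ digital gene expression of RNA from both lines. The deposited values were raw counts per gene, which the authors made with tools that their processing notes list as Salmon 0.13.1 and genome build mm10; the annotation was not given in the sources used here. Groups came from the labels. Counts were filtered by expression in the groups, scaled by TMM and tested with edgeR 4.0.16 (quasi-likelihood test, R 4.3.3), with the 15 groups of a line in one fit, or all 90 samples for differences between lines. P-values were adjusted by Benjamini-Hochberg over all tested genes of a comparison (threshold 0.05), and approximate 95% intervals are the estimate ± its SE scaled to the normal distribution. DESeq2 1.42.0, library totals, no filter, the compared groups alone, a replicate block, leaving out each replicate and leaving out the shallow libraries were alternatives. Of 53697 identifiers, 53668 matched a symbol. The 9 members are all described, and for each the 3 genes most like it over group means are named. The members and lists were chosen with earlier results of these data known. Some genes of the pathway and marker lists are not reported here. The study set aside some samples without naming them, so all 90 were kept. Tested on simulated data for the 24 h response, 82.5% of 200 genes given a true log2 change of 2 were recovered among 9589 genes in YUMM2.1, and 74.5% among 8516 in CT26. Shared sequence was found with blastn 2.17.0 in GENCODE M21 transcripts. Intervals on ratios of counts cover counting error only.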

Additional observations from a re-analysis of the deposited data

Results flagged for a closer look

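The 24 h response to fresh IFNγ differed between cells exposed for 3 weeks and naïve cells, by the test of the difference itself (edgeR), for 3 members in YUMM2.1 and 6 in CT26. In YUMM2.1 the log2 differences were -4.187 for Nmi, -1.595 for Ifi35 and -2.047 for Samd9l. In CT26 they were -4.441 for Sp110, -3.005 for Samd9l, -2.611 for Nmi, -1.979 for Ifi35, -1.905 for Sp100 and -1.659 for Daxx. The value of Sp110 rests on 3 counts in the naïve controls.

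The response also differed between the lines, YUMM2.1 less CT26, for Daxx after 24 h in naïve cells (-1.871, edgeR adjusted p = 0.0277) and for Samd9l after 3 weeks (-2.297, edgeR adjusted p = 0.00526). Both calls were lost under at least 1 alternative.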

How the results depend on the processing

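Of 69 calls of a member in a comparison, 69 kept direction and call with library totals, 69 with the replicate block, 66 without a filter on low counts, 66 without the shallow libraries, and 66 of the 67 with an adjusted p with DESeq2. With only the compared groups, 55 of 68 did, and 47, 49 and 51 of 69 did without replicates 1, 2 and 3. No called value changed sign. The cause of lost calls was not tested. Leaving out a replicate also left fewer samples in each group.

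Counts of calls moved by over 1.5 times as follows. For controls over time in YUMM2.1, 0 calls became 1 with DESeq2, with library totals and with only the compared groups. For change under IFNγ over time, 7 calls in CT26 became 3 with only the compared groups and 1 to 5 when leaving out a replicate, and 0 in YUMM2.1 became 2 with DESeq2 and without a filter. For rechallenge, 4 calls in each line became 0 to 1 in CT26 and 2 in YUMM2.1 when leaving out a replicate. For the 3-week less naïve response in YUMM2.1, 3 calls became 1 without replicate 2. The difference between lines in the 0-week control, not called, changed sign for Daxx without replicate 3 (-0.147) and for Samd9l with library totals (0.057), with the replicate block (0.068), and without replicates 2 (0.261) and 3 (0.238). When leaving out a replicate it ranged from -0.147 to 1.104 for Daxx and from -1.332 to 0.261 for Samd9l.

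Replicate numbers were not shown to pair the samples: the median correlation of deviations of same-numbered samples was 5e-04 in YUMM2.1 and 0.006 in CT26, and 13 and 21 of 45 samples correlated best with their own number. With the block, Sp110 in CT26 24 h after rechallenge at week 1 passed (1.494, adjusted p = 0.0475). Shallow libraries and low counts of Sp110, Sp140, Sp100 and Pml limit what could be detected.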
